A study of Rattus norvegicus with 70 samples.

Results

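NRF2, the transcription factor encoded by Nfe2l2, its inhibitor KEAP1 and the glutathione and peroxidase genes form the cell's inducible defence against oxidants, and their messenger RNA was followed here in 6 rat tissues after a single ozone exposure. The set was chosen by name from general knowledge of the pathway, though with earlier results of these data known. It lists 43 genes, of which 41 had a row among the 19441 genes of the tables. Pgd and Gstm2 were not analysed here. The genes fall into 6 families: 2 regulators (Nfe2l2 and Keap1), 11 NRF2 target genes, 6 genes of glutathione supply, 4 of NADPH supply, 14 peroxidases and dismutases, and 6 glutathione transferases. The animals were male WKY (Wistar-Kyoto) rats, an inbred strain, that breathed either air or 0.8 ppm ozone, an oxidant gas, for 4 h. Whole pieces of lung, liver, adrenal, hypothalamus, adipose and muscle were sequenced, so every value mixes all the cell types of a tissue. Lung, liver and hypothalamus had 6 air and 6 ozone libraries each, adrenal 5 and 6, adipose 5 and 5, and muscle 6 and 5. Separate rats are not stated in the labels for the libraries of a group, so p-values describe spread between libraries only. Library numbers end at 12 in air and start at 13 in ozone, and any handling order behind them cannot be told apart from ozone.

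In a resting cell KEAP1 binds NRF2 and hands it to an ubiquitin ligase for degradation. Oxidants and electrophiles modify cysteines of KEAP1, NRF2 then accumulates, pairs with a small MAF protein in the nucleus and binds antioxidant response elements near genes such as Nqo1, Txnrd1, Gclc and Gclm. The products of these genes make and recycle glutathione and thioredoxin, conjugate electrophiles, break down haem and store iron. NRF2 is controlled chiefly as a protein, which messenger RNA does not measure.

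Of the 70 libraries in the labels 68 were analysed, with 8854272 to 18848151 recovered reads each. The missing ones, muscle ozone 17 and adrenal air 7, were not used here. The summed markers of the labelled tissue were well above 0 in every library of that tissue. Some libraries stood apart from their group over all genes: lung air 2 and air 8 on the first principal component, liver air 1, adrenal air 8, whose median correlation with its group was 0.149, and adipose air 2 and ozone 22. Adipose air 2 also held the most muscle marker signal, with a summed value of 222960 where the other adipose air libraries began at 2579. Results that depend on such a library are given with and without it.

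Values are normalised read counts, that is, reads per gene divided by 1 size factor per library, and they are compared only within a tissue because each tissue was normalised as its own table. A gene rose or fell where limma on log2(value + 1) gave a Benjamini-Hochberg adjusted p under 0.05 over all genes tested in that tissue. Genes with a mean value of at least 10 were tested, and log2 fold changes, ozone minus air, are given ± standard error. The set gave 230 gene and tissue pairs to test, of which 29 passed, 13 of them risen and 16 fallen. In 23 of the 29 the ozone and air libraries did not overlap. Passing the test itself favours such separation, and the share without overlap among all called genes was not counted.

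In lung 7 of 40 tested members rose and none fell, at 17.7% of all genes passing the test there, 9.51% risen and 8.18% fallen. In muscle 3 of 37 rose and 11 fell, where 43.7% of all genes passed, 21.6% risen and 22.1% fallen. Liver had 4 fallen and no risen members of 38, against 11.5% of all genes called, 6.74% risen and 4.72% fallen. Adrenal had 2 risen and 1 fallen of 39, against 18.6% of all genes, 9.23% risen and 9.38% fallen. In adipose 1 of 37 rose, where 7.32% of all genes passed, 3.87% risen and 3.45% fallen. In hypothalamus 0 of 39 passed, against 1.41% of all genes, 0.789% risen and 0.624% fallen. The share of members called was near the share of all genes in lung (17.5%) and liver (10.5%), and below it in adrenal (7.69%), adipose (2.70%) and muscle (37.8%). With limma all calls in lung were higher and all in liver lower in ozone. This did not hold in every alternative: with DESeq2, Blvrb and Prdx3 fell in lung (adjusted p = 0.0291 and 0.0346), beside 9 members that rose, and with array weights Sod2 rose in liver (0.0401), beside 6 that fell. The median log2 fold change of the members tested was 0.10 in lung, -0.09 in liver, 0.01 in adrenal, 0.11 in hypothalamus, 0.12 in adipose and -0.26 in muscle, while that of all genes tested lay between -0.0035 and 0.016.

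**Figure D1:**
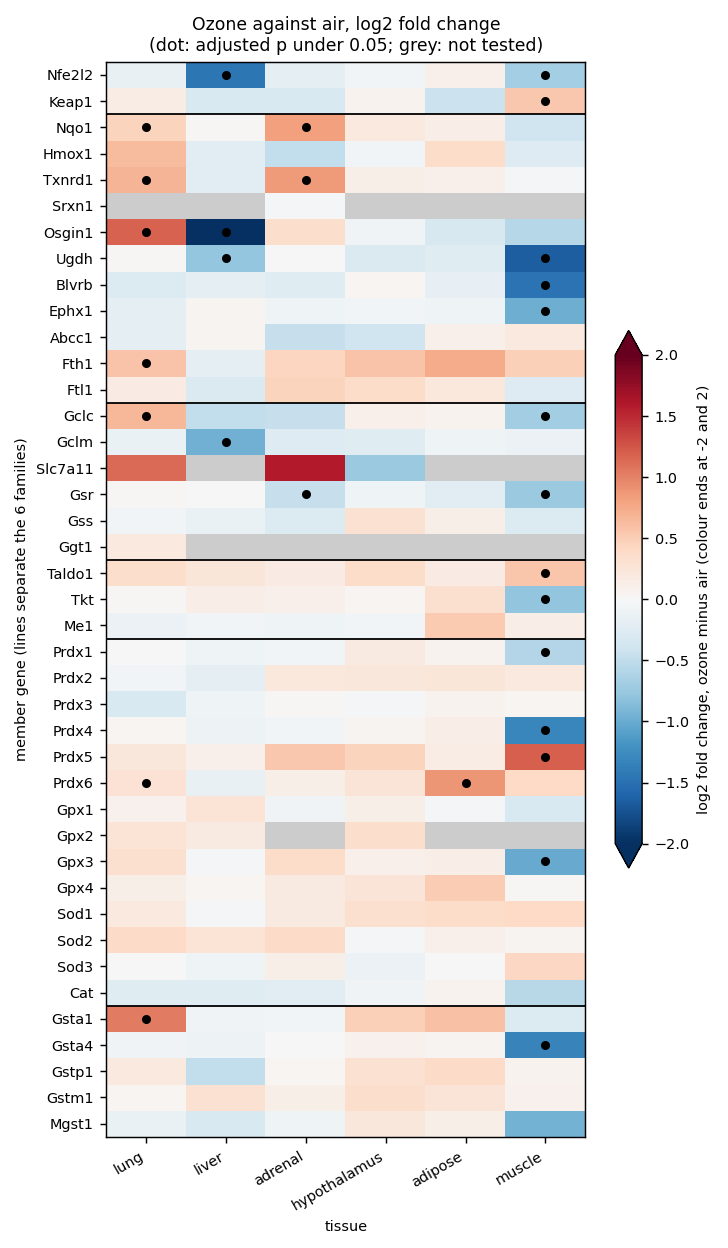
Log2 fold change, ozone minus air, of the 41 members (rows, in their 6 families) in the 6 tissues (columns). Red is higher and blue lower in ozone, a dot marks adjusted p under 0.05, grey marks pairs that were not tested, and the colour ends at -2 and 2, so that Osgin1 in liver at -4.06 is shown at the end of the scale. The dots are red in lung and blue in liver, mostly blue in muscle, and there is none in hypothalamus.

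Across tissues, 21 members passed in at least 1 tissue, 13 of them in 1 and 8 in 2, and none in 3 or more. The other 20 passed in none. The same counts were not made for all genes, so these numbers cannot be called particular to the set. The lung genes that rose were not those that fell in liver, except Osgin1, and Osgin1 and Gclc were the 2 members called in opposite directions in different tissues.

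Because the genes are grouped by a shared factor, their promoters were read for the core of the antioxidant response element. RefSeq promoters (rat build GRCr8, 250 bases before to 50 after each gene's start) were matched by symbol for 35 members. Hmox1, Fth1, Ftl1, Gsr, Prdx6 and Sod3 had no entry. The motif TGACNNNGC was present on either strand in 13 of the 35 (37.1%), and in 3602 of all 27457 genes of the promoter table (13.1%). Among the matched members, 9 of the 18 that were called in at least 1 tissue held it and 4 of the 17 called in none, 2 of 5 that rose in lung and 3 of 4 that fell in liver. With TGATNNNGC added, the shares were 40.0% of members and 20.3% of all genes. These windows are short, a match is not a bound site, and the authors mapped to another build, rn6. The sequences shown are those of the 4 members that fell in liver and of Txnrd1 and Gsta1, the matched members that rose in lung and hold the motif. Capitals mark a match of TGACNNNGC or of its reverse complement, and the 250 bases end just before the start of the gene. For Gsta1 and Nfe2l2, whose match lies 30 and 38 bases after the start, only the match and its surroundings are shown.
Gclm, chr2:213031885-213032134, + strand, match 172 bases before the start: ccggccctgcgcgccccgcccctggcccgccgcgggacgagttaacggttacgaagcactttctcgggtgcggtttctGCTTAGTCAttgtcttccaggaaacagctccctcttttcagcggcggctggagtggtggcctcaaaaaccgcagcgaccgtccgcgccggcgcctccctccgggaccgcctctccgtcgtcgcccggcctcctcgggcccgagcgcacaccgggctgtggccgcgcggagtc
Txnrd1, chr7:22755905-22756154, - strand, 1 of 2 listed starts, match 78 bases before the start: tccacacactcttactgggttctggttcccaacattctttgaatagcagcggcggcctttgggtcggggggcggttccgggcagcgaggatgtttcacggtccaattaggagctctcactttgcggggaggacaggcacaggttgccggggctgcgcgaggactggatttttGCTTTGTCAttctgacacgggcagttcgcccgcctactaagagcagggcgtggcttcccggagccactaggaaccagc
Ugdh, chr14:43202268-43202517, + strand, match 207 bases before the start: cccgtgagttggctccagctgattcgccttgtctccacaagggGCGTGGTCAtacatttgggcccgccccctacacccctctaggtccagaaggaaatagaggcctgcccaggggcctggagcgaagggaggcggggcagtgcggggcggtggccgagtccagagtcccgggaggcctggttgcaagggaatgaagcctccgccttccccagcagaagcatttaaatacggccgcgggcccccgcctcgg
Osgin1, chr19:64393651-64393900, + strand, no match in this window: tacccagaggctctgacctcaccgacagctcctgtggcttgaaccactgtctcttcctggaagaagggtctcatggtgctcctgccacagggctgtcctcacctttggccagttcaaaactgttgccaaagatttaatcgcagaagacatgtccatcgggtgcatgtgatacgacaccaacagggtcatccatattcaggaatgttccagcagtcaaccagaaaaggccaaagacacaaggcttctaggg
Gsta1, chr9:31216484-31216512, - strand: aactcaggcaTGACTTTGCatttttcttc
Nfe2l2, chr3:81028950-81028971, - strand: gactagccatTGACGCCGCctc
Gclm and Txnrd1 carry the core as GCTTAGTCA and GCTTTGTCA, on the strand opposite to the one printed, and Ugdh as GCGTGGTCA. Osgin1 had the most negative fold change of any member and holds no match in these letters.

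Nfe2l2 itself fell in liver and muscle and did not rise in any tissue. Normalised counts in liver ran from 709 over a median of 911 to 1177 in air, and from 272 over 343 to 409 in ozone. The groups were far apart, with the highest ozone library below the lowest air library. The fold change was -1.44 ± 0.14 (adjusted p = 1.2e-05), or 2.72-fold lower. In muscle, air libraries ran from 439.99 over 552 to 781, and the 5 ozone libraries were at 332, 407, 350.03, 343 and 392. Again no ozone library reached the air range, and the log2 fold change was -0.68 ± 0.15 (adjusted p = 0.00275). Elsewhere Nfe2l2 did not pass: -0.14 ± 0.12 in lung (adjusted p = 0.432), -0.18 ± 0.14 in adrenal (0.416), -0.05 ± 0.15 in hypothalamus (0.899) and 0.10 ± 0.12 in adipose (0.684). In a bulk tissue, fewer cells of a type and less RNA per cell cannot be told apart.

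Keap1, the inhibitor, rose in muscle and passed nowhere else in the main limma fits. Muscle air libraries held 336 to 559.71 normalised counts with a median of 422, and the ozone libraries held 608, 587, 642, 603 and 624. The ozone values lay in a narrow band just above the highest air library, and the log2 fold change was 0.53 ± 0.14 (adjusted p = 0.00732). In the same muscle libraries Nfe2l2 was lower. The Keap1 difference was 0.14 ± 0.15 in lung (adjusted p = 0.540), -0.30 ± 0.12 in liver (0.121), -0.31 ± 0.18 in adrenal (0.259), 0.07 ± 0.14 in hypothalamus (0.854) and -0.44 ± 0.14 in adipose (0.0818). Without adrenal air 8 the adrenal difference was -0.48 and passed (adjusted p = 0.0164), over a range of 0.0164 to 0.483 when each adrenal library was left out. With array weights Keap1 passed as lower in adrenal (adjusted p = 0.00764), liver (0.0269) and adipose (0.0366). With DESeq2 it passed as lower in adipose (0.0323).

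Among the 11 NRF2 targets, 4 of 10 tested rose in lung and none fell, where 9.51% of all lung genes rose and 8.18% fell. Osgin1, which encodes an oxidative stress induced growth inhibitor, had 60.1 to 95.8 normalised counts in lung air (median 70.2) and 101 to 266 in lung ozone (median 172). Every ozone library was above every air library, and the log2 fold change was 1.18 ± 0.20 (adjusted p = 0.000904). Txnrd1, the cytosolic thioredoxin reductase, ran from 671 over 805 to 875 in air and from 1119 over 1210.1 to 1426 in ozone. The groups were separate there too, at 0.67 ± 0.10 (adjusted p = 0.000274). Fth1, the ferritin heavy chain that stores iron, had a median of 9155 in air (5670.3 to 10004) and of 11724 in ozone (10214 to 16427), a log2 fold change of 0.57 ± 0.15 (adjusted p = 0.0164). The Fth1 groups barely cleared each other, and with lung air 2 and air 8 left out together the adjusted p was 0.0533.

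Nqo1, the quinone reductase that is a standard readout of NRF2, also rose in lung. It had 342 to 479 normalised counts in air (median 411) and 436 to 667 in ozone (median 563). Ozone 16, at 435.8, lay inside the air range, and the other 5 ozone libraries lay above it. The log2 fold change was 0.45 ± 0.11 (adjusted p = 0.0128). Hmox1, the inducible haem oxygenase, did not pass at 0.63 ± 0.22 (adjusted p = 0.0601). Its lung air libraries were tight, from 349 to 449.8 with a median of 417, whereas the ozone libraries spread from 374 to 1026 with a median of 646. Ozone 15 and 20 were the highest, at 1026 and 919, and ozone 16 and 19 overlapped the air libraries. Hmox1 passed with edgeR's quasi-likelihood test (adjusted p = 0.0344), with DESeq2 (0.00886) and without ozone 16 (0.0154), and its adjusted p ran from 0.00886 to 0.159 over all alternatives.

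**Figure D2:**
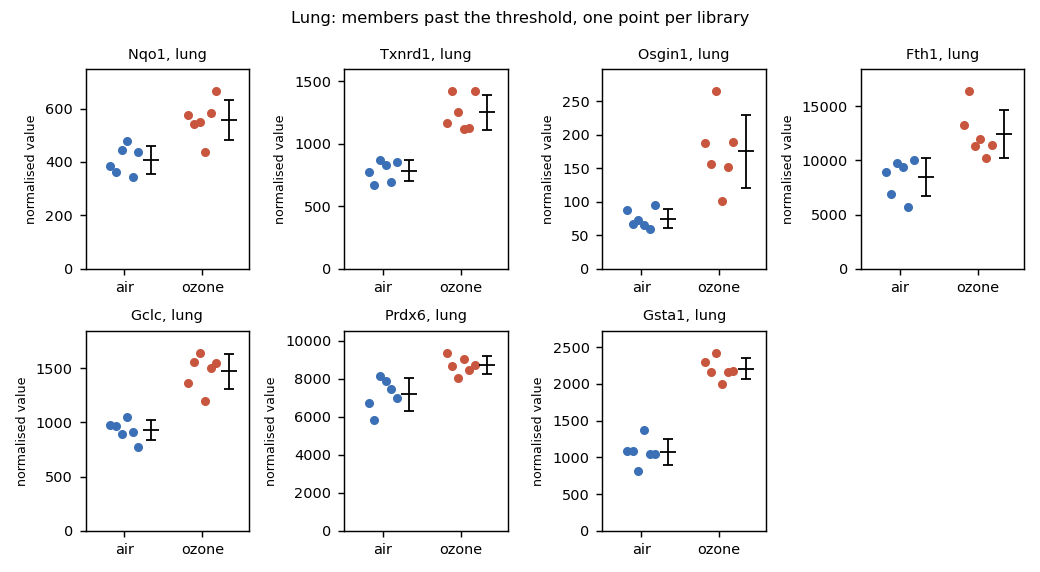
Normalised read counts of the 7 members that rose in lung, 1 point per library (6 air in blue, 6 ozone in red), with the mean and SD beside each group on axes that start at 0. The groups are separate for Txnrd1, Osgin1, Fth1, Gclc and Gsta1 and overlap for Nqo1 and Prdx6.

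In liver Osgin1 moved the other way and by far more. Its air libraries ran from 1079 over a median of 3151 to 4942, a wide spread, and its ozone libraries from 95.5 over 127 to 254. Even the highest ozone library lay far below the lowest air library. The log2 fold change was -4.06 ± 0.38 (adjusted p = 9.36e-06), or 16.6-fold lower. Ugdh, the enzyme that makes UDP-glucuronic acid for conjugation, fell in liver from a median of 2979 (2449 to 3200.1) to one of 1728 (1173 to 2332), with no overlap and a log2 fold change of -0.78 ± 0.16 (adjusted p = 0.0052). Nqo1 and Hmox1 did not pass in liver, at 0.02 ± 0.16 (adjusted p = 0.974) and -0.23 ± 0.20 (0.571). In liver 8 macrophage, 2 neutrophil, 3 lymphocyte and 7 endothelial markers could be tested and gave 0 calls, and 2 of 8 liver markers rose. The mean sums of these 4 lists differed by 0.05, -0.69, -0.16 and -0.41 on the log2 scale, ozone minus air. The part of cell composition in the liver results was not tested.

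In adrenal, Nqo1 and Txnrd1 were the 2 members that rose. The adrenal air libraries held 291, 217, 199, 262 and 269 normalised counts of Nqo1, and the ozone libraries ran from 332 over a median of 444 to 547. No value was shared between the groups, and the log2 fold change was 0.81 ± 0.17 (adjusted p = 0.00584). Txnrd1 was at 1216, 912, 643, 1575 and 1172 in air and ran from 1593 over 1836 to 2315 in ozone, so that air 9, at 1575, came just below the lowest ozone library. Its log2 fold change was 0.84 ± 0.20 (adjusted p = 0.0110). Hmox1 did not pass in adrenal, at -0.49 ± 0.18 (adjusted p = 0.0798, and 0.0147 to 0.184 with each library left out). It passed as lower with DESeq2 (adjusted p = 0.0353) and with array weights (0.0157), and not with edgeR (0.0593). Summed lung markers were 75.0 to 1220 in adrenal air and 334 to 4609 in adrenal ozone libraries, with 2 of 8 risen. Summed liver markers were 487 to 25597 in adrenal air and 247 to 8949 in adrenal ozone libraries, with 0 of 8 called. The part of either list in these results was not tested.

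In muscle 3 of 10 tested targets fell and none rose, where 22.1% of all muscle genes fell and 21.6% rose. Blvrb, a biliverdin and flavin reductase, had 271 to 344 normalised counts in air (median 285) and 78.2, 142, 121, 98.2 and 96.2 in the ozone libraries. The air libraries were tight and the ozone libraries at a lower level, with a log2 fold change of -1.47 ± 0.15 (adjusted p = 1.84e-05). Ugdh had 175 to 470.2 in air (median 280.3) and 99.4, 120.4, 94.0, 73.9 and 67.3 in ozone, at -1.65 ± 0.27 (adjusted p = 0.000411). It thus fell in muscle as in liver. Ephx1, the microsomal epoxide hydrolase, fell by 0.97 ± 0.30 on the log2 scale (adjusted p = 0.0173), with overlapping groups. Nqo1 was at -0.40 ± 0.21 (adjusted p = 0.130) and Hmox1 at -0.26 ± 0.28 (0.478).

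The muscle libraries differed between exposures over much of the genome, and this stands beside each muscle result. Summed muscle markers (Acta1, Ckm, Myh4 and others) were 1257350 to 2213140 in air and 3087070 to 5216530 in ozone, and 6 of the 7 tested rose. Of 7 endothelial markers 1 rose and 4 fell, and of 7 macrophage markers 2 fell. Summed values of the endothelial list were 4467 to 6955 in air and 3652 to 4574 in ozone. The first principal component held 61.9% of the variance and separated all air from all ozone libraries. Whether this change of marker levels accounts for any member's change was not tested.

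In hypothalamus and adipose no NRF2 target passed. Hypothalamus Nqo1 was at 0.19 ± 0.13 (adjusted p = 0.528) and Hmox1 at -0.06 ± 0.21 (0.922), and adipose Nqo1 at 0.13 ± 0.14 (0.638) and Hmox1 at 0.36 ± 0.19 (0.288). Hypothalamus had no call in the whole set with limma, edgeR or DESeq2. At an unadjusted p under 0.05 there were 9 members, 7 higher and 2 lower, with a lowest adjusted p of 0.212. Of these, Slc7a11 had the largest difference at -0.75 ± 0.27 and Fth1 the next at 0.57 ± 0.26. The share of all hypothalamus genes at that unadjusted threshold was not counted, so the 9 members cannot be set against it.

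Of the targets with weaker signal, Srxn1, the sulfiredoxin that repairs peroxiredoxins, reached the minimum mean only in adrenal and did not pass there. Abcc1, an export pump for glutathione conjugates, and Ftl1, the ferritin light chain, passed in no tissue. The sources used here give neither the counting method nor its strand setting. Fth1, Ftl1, Prdx1 and the glutathione transferases have close copies in the genome, and their values are uncertain to that extent.

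Glutathione is made from cysteine, glutamate and glycine, and of its 6 supply genes only Gclc, Gclm and Gsr passed in any tissue. Gclc, the catalytic subunit of glutamate-cysteine ligase, which sets the rate of synthesis, rose in lung from a median of 941 (772 to 1048) to one of 1524 (1200.4 to 1643). All ozone libraries lay above all air libraries, at 0.66 ± 0.10 (adjusted p = 0.000277). In muscle Gclc fell by 0.69 ± 0.22 on the log2 scale (adjusted p = 0.0219), with overlap, and this call ended without ozone 13 (adjusted p = 0.0578, over a range of 0.00533 to 0.0578 with each library left out). Gclm, the modifier subunit of the same enzyme, passed in liver alone. It fell there, from a median of 1246 (953 to 1465) to one of 645 (394 to 942), at -0.97 ± 0.19 (adjusted p = 0.00433). Gclm air and ozone libraries of liver did not overlap, though the 2 nearest, air 7 at 953 and ozone 16 at 942, were close.

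Gsr, the reductase that recycles oxidised glutathione, fell in adrenal and muscle. The adrenal air libraries held 616.1, 524, 615.9, 552 and 485, and the ozone libraries ran from 353 over 411 to 443. The drop was small but free of overlap, at -0.45 ± 0.11 (adjusted p = 0.0124). In muscle Gsr fell by 0.75 ± 0.17 on the log2 scale (adjusted p = 0.00373), from a median of 148 to one of 97.2. Gss, the glutathione synthetase, passed in no tissue, and Ggt1, which breaks down extracellular glutathione, reached the minimum mean in lung alone.

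Slc7a11, the cystine carrier that feeds glutathione synthesis, turned on single libraries, and in adrenal also on the method. In lung the air libraries ran from 12.9 over a median of 22.1 to 117 and the ozone libraries from 33.6 over 76.2 to 107, a log2 fold change of 1.13 ± 0.46 (adjusted p = 0.109). Air 2 alone, at 117, held the air group above 39.2. Without it the difference was 1.53 (adjusted p = 0.00873, over a range of 0.00873 to 0.205 with each library left out). In adrenal the air libraries held 29.0, 32.6, 130.4, 14.7 and 25.2, and the ozone libraries ran from 51.3 over 93.5 to 291, at 1.58 ± 0.53 (adjusted p = 0.0536). The high value was that of air 8, the adrenal library least like its group, and without it the difference was 2.06 (adjusted p = 0.00318, over a range of 0.00318 to 0.1199 with each library left out). Adrenal Slc7a11 also passed without ozone 15 (adjusted p = 0.0416). With all adrenal libraries kept, it passed with DESeq2 (adjusted p = 0.0422), array weights (0.000882) and a minimum mean of 50 (0.04995), and not with edgeR (0.106). Lung air 2 and adrenal air 8 are both among the libraries that stood apart over all genes.

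**Figure D3:**
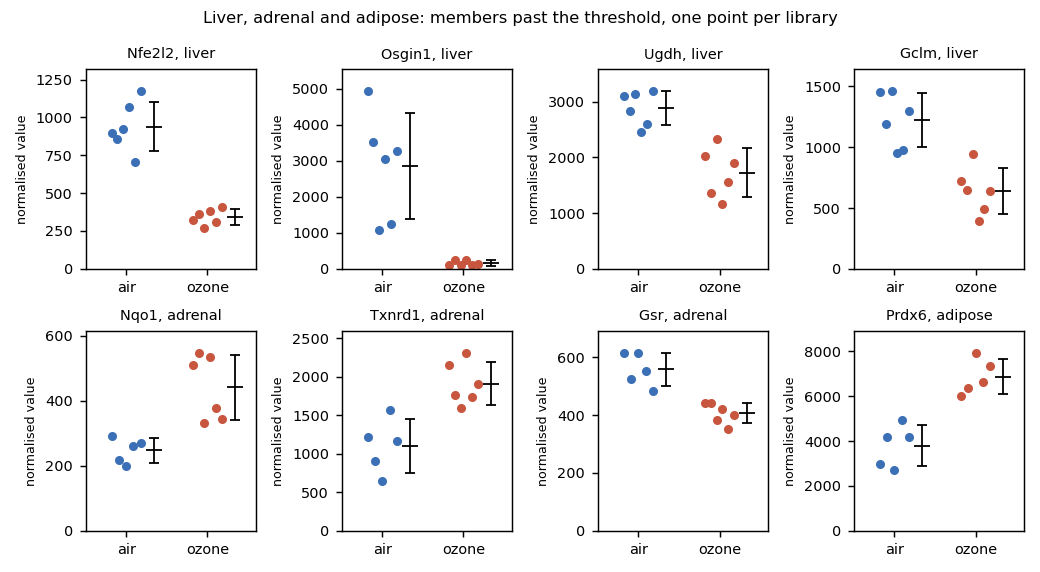
Normalised read counts of the 4 members that fell in liver, the 3 called in adrenal and the 1 that rose in adipose, 1 point per library (air in blue, ozone in red), with mean and SD beside each group on axes that start at 0. None of these 8 pairs of groups overlaps, and Osgin1 in liver spreads widest in air.

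The NADPH that reduces glutathione and thioredoxin comes in part from the pentose phosphate pathway and malic enzyme. Taldo1 and Tkt, the transaldolase and transketolase of that pathway, moved in opposite directions in muscle. Taldo1 ran from 218 over 285 to 357 in air and was at 439, 365, 423, 457 and 403 in ozone, at 0.55 ± 0.13 (adjusted p = 0.00509). Tkt ran from 210.4 over 270 to 337 in air and was at 171, 192, 145, 138 and 128 in ozone, at -0.79 ± 0.15 (adjusted p = 0.00114). Both groups were separate, and no other tissue had a call in this family. Me1, the cytosolic malic enzyme, passed in none, and in adipose its libraries overlapped widely, from 2594 to 12432 in air and 3711 to 15500 in ozone.

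Peroxiredoxins, glutathione peroxidases, superoxide dismutases and catalase remove superoxide and peroxides, and of these 14 genes most did not pass. Prdx6, a peroxiredoxin that also acts on phospholipids and is known from lung surfactant turnover, rose in adipose and lung. Adipose air libraries held 2989, 4157, 2719, 4924 and 4167 normalised counts and ozone libraries 5999.8, 6357, 7938, 6642 and 7335. All 5 ozone libraries lay above the highest air library, at 0.88 ± 0.17 (adjusted p = 0.00967). In lung the rise was small, from a median of 7249 (5810.3 to 8150) to one of 8715 (8037 to 9383), at 0.29 ± 0.09 (adjusted p = 0.0351), with overlap. That lung call ended without air 1, air 2, or ozone 13, 14, 16, 19 or 20 (adjusted p = 0.0559 to 0.0803), and without air 2 and air 8 together (0.0745). Prdx6 in adipose remained called with each of the 10 libraries left out and with air 2 and ozone 22 left out together.

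Muscle held the other calls of this family, 1 risen and 3 fallen. Prdx5, a peroxiredoxin of mitochondria, peroxisomes and cytosol, ran from 212 over 547 to 620.02 in air and was at 1277, 849.5, 1507, 1062 and 863 in ozone. Air 7 was the low library of its group, and the ozone libraries all lay above air, at 1.19 ± 0.26 (adjusted p = 0.00276). Prdx4, the peroxiredoxin of the endoplasmic reticulum, ran from 181 over 319 to 467 in air and was at 90.5, 172, 139, 92.7 and 110.1 in ozone, at -1.30 ± 0.26 (adjusted p = 0.00161). Gpx3, the secreted glutathione peroxidase of plasma, fell by 1.01 ± 0.26 and Prdx1, a cytosolic peroxiredoxin, by 0.59 ± 0.17 on the log2 scale (adjusted p = 0.00744 and 0.0131), both with overlap. So Prdx5 rose while Prdx4 and Prdx1 fell in the same muscle libraries.

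The superoxide dismutases, catalase, Gpx1, Gpx2, Gpx4, Prdx2 and Prdx3 passed in no tissue. Sod2, the mitochondrial dismutase, came nearest in lung, at 0.38 ± 0.13 (adjusted p = 0.0544), and passed with edgeR there (0.0491). Cat was at -0.56 ± 0.23 in muscle (adjusted p = 0.0595) and passed there with edgeR (0.0408). Gpx2, the epithelial glutathione peroxidase, was under the minimum mean in adrenal, adipose and muscle.

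Glutathione transferases join glutathione to electrophiles. The transferase listed as Gsta1 had the lowest adjusted p of any member in lung. Its lung air libraries ran from 819 over a median of 1068 to 1374 and its ozone libraries from 1998 over 2170.1 to 2424. The gap between the groups exceeded the range of either, and the log2 fold change was 1.05 ± 0.10 (adjusted p = 1.16e-05), or 2.06-fold. RefSeq gives Gsta1 as an older symbol of Gsta2 as well, so which of these near copies the row counts is uncertain. In adipose Gsta1 was at 1330, 1759, 1190.4, 1666 and 1708 in air and at 2454, 1944, 3158, 1973 and 2049 in ozone. These groups did not overlap, yet the difference of 0.59 ± 0.17 did not pass (adjusted p = 0.0537, and 0.0460 to 0.123 with each library left out).

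Gsta4, a transferase that takes up lipid peroxidation products, fell in muscle. Its air libraries ran from 38.3 over 47.6 to 106 and its ozone libraries were at 25.7, 14.2, 18.4, 29.8 and 20.3, at -1.33 ± 0.28 (adjusted p = 0.0021). Gstp1, Gstm1 and Mgst1 passed in no tissue. Mgst1, the microsomal transferase, was at -0.95 ± 0.41 in muscle (adjusted p = 0.0734) and passed there with edgeR (0.0381).

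**Figure D4:**
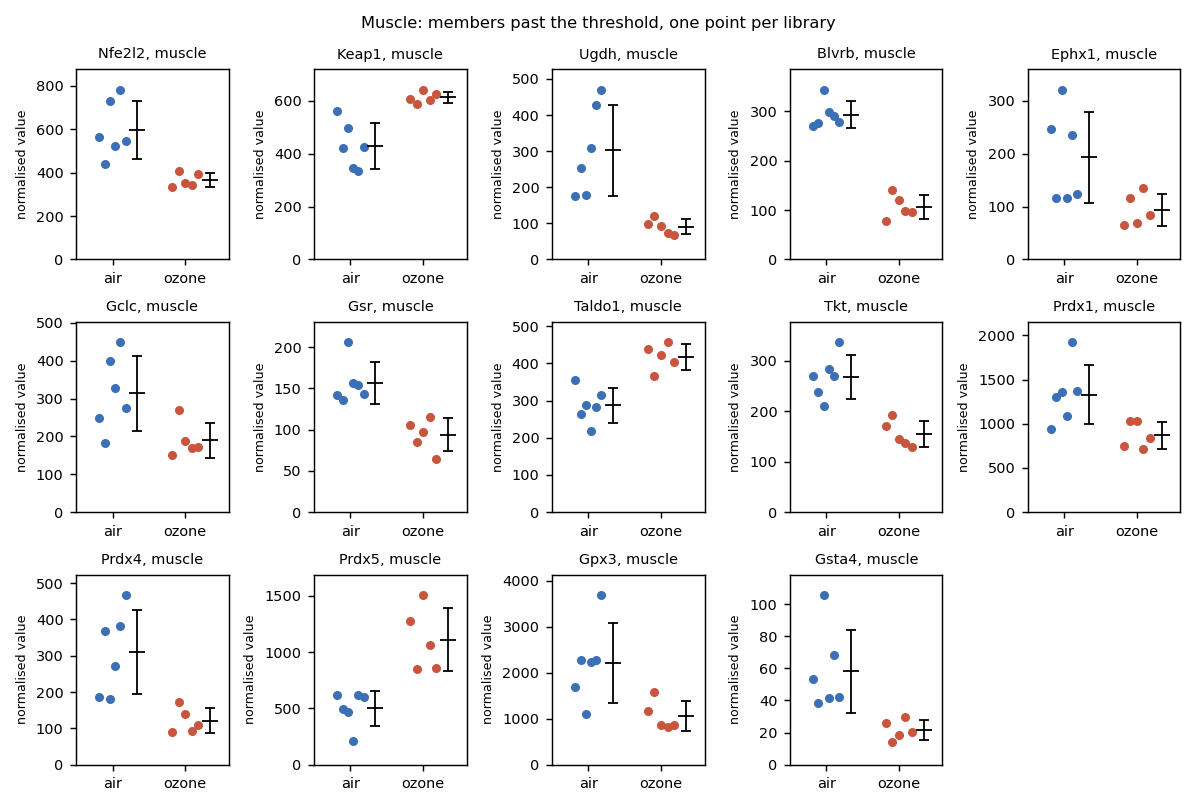
Normalised read counts of the 14 members called in muscle, 1 point per library (6 air in blue, 5 ozone in red), with mean and SD beside each group on axes that start at 0. Keap1, Taldo1 and Prdx5 are higher in ozone and the other 11 lower, and the groups overlap for Ephx1, Gclc, Prdx1 and Gpx3.

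Lung marker lists give the setting of the lung results. Of 5 neutrophil markers tested 4 fell, with summed values of 736 to 900 in air and 437 to 547 in ozone (Mpo, Ngp and Camp were under the minimum). Of 8 lymphocyte markers 4 fell. Of 7 macrophage markers 3 rose and 2 fell, with sums of 6105 to 7118 in air and 6761 to 8421 in ozone. Of 8 lung epithelial markers 4 rose and 1 fell. The part of these shifts in the members' changes was not tested.

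The response was then compared between tissues. A limma F test asked whether the difference between ozone and air varied over the 6 tissues, in the 11111 genes that reached the minimum mean in all of them. It passed for 19 of 37 members (51.4%) and for 41.9% of all genes. The lowest p was that of Osgin1 (adjusted p = 1.20e-14), whose ozone effect in lung (1.18) exceeded that in liver (-4.06) by 5.23 ± 0.42 on the log2 scale. Nfe2l2 followed (adjusted p = 2.16e-09). Its effect in liver was lower than in each of the other 5 tissues, with adjusted p for the pairs between 1.74e-08 and 0.00351. The spread in this fit is pooled over tissues.

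For Txnrd1 (adjusted p = 2.45e-06) the effects in adrenal (0.84) and lung (0.67) were above those of the other 4 tissues. The highest and lowest, adrenal and liver, differed by 1.07 ± 0.18. Gclc (5.29e-05) went from 0.66 in lung to -0.69 in muscle, a difference of 1.35 ± 0.25, and its effect in lung was also above those in liver and adrenal. Gsta1 (adjusted p = 0.0001) went from 1.05 in lung to -0.27 in muscle, a difference of 1.32 ± 0.26. Lung against adipose and lung against hypothalamus did not pass for Gsta1. Ugdh (adjusted p = 6.73e-07), Prdx4 (1.41e-05) and Blvrb (0.000101) were lowest in muscle, where they differed from the highest tissue by 1.68 ± 0.25, 1.43 ± 0.26 and 1.505 ± 0.272. Pairs were adjusted over all genes and 15 tissue pairs together.

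**Figure D5:**
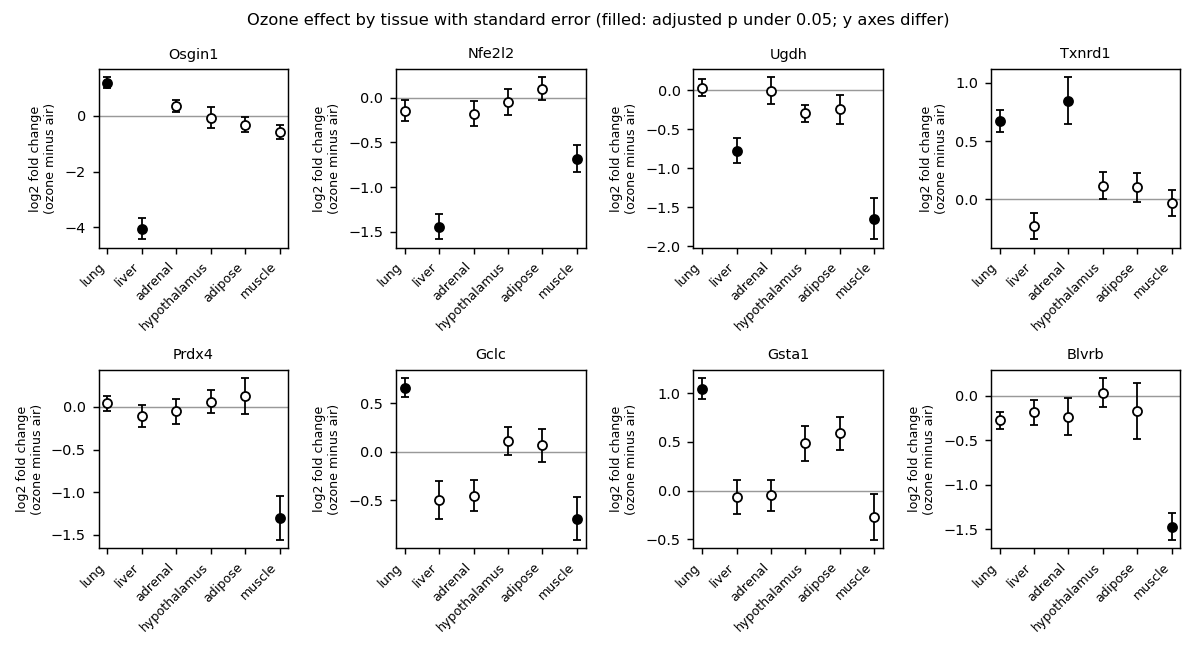
Log2 fold change, ozone minus air, with its standard error, in the 6 tissues for the 8 members with the lowest F-test p. Filled points passed within their tissue, and the y axes differ. Osgin1 lies at 1.18 in lung and -4.06 in liver, and Ugdh, Prdx4 and Blvrb are lowest in muscle.

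A second list of 78 pathway genes outside the set was chosen by their function, also with earlier results of these data known. It had 72 in the tables and was counted with the same fits. In lung 10 of 66 tested rose and 4 fell (21.2% called, against 17.7% of all lung genes, 9.51% risen and 8.18% fallen), led by Maff, a small MAF partner of NRF2 (1.44 ± 0.17), Txnip, the thioredoxin inhibitor (0.60 ± 0.09), and Sesn2, a sestrin (0.65 ± 0.11). The lung genes that fell with the lowest p were Lap3 (-0.42), Nnt (-0.45) and Abcc3 (-0.35). In liver 6 of 65 rose and 4 fell (15.4% called, against 11.5% of all liver genes, 6.74% risen and 4.72% fallen). Bach1 and Bach2, which compete with NRF2 for its sites, rose there by 1.99 ± 0.40 and 2.64 ± 0.39, and Slc3a2, the partner chain of Slc7a11, by 0.83 ± 0.11. The genes with the lowest p among those fallen in liver were Gstt2 (-0.61), Slc40a1 (-0.41) and Lap3 (-0.34). Nfe2l2 was lower in these liver libraries. Bach1 and Bach2 also rose in adipose, by 0.65 ± 0.15 and 0.97 ± 0.23, where Nfe2l2 did not pass (0.10 ± 0.12). In muscle, where Nfe2l2 fell, Bach1 rose and Bach2 did not pass (-0.16 ± 0.28). Any link between these genes was not tested.

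In adrenal 10 of 64 rose and 4 fell (21.9% called, against 18.6% of all adrenal genes, 9.23% risen and 9.38% fallen). Akr1b10, an aldo-keto reductase, rose by 2.05 ± 0.22, Slc3a2 by 0.86 ± 0.11 and Maff by 2.00 ± 0.27. The fallen were led by Gstt2 (-1.12), Abcc3 (-0.49) and Fech (-0.54). In adipose 6 of 64 rose and 2 fell (12.5% called, against 7.32% of all adipose genes, 3.87% risen and 3.45% fallen). Slc3a2 rose by 1.00 ± 0.13, Mafk by 0.79 ± 0.13 and Maff by 1.04 ± 0.22, while Idh1 (-0.97) and Nnt (-0.62) fell, both sources of NADPH. In hypothalamus none of 66 rose and 1 fell (1.52% called, against 1.41% of all hypothalamus genes), the iron exporter Slc40a1 (-0.68 ± 0.13, adjusted p = 0.0226). In muscle 19 of 60 rose and 11 fell (50% called, against 43.7% of all muscle genes, 21.6% risen and 22.1% fallen), led by Msrb1 (1.87 ± 0.21), Bach1 (1.42 ± 0.20) and Ccs (1.00 ± 0.18), while Gpx8 (-1.51 ± 0.22) and Idh1 (-1.03 ± 0.18) were among those that fell. The median log2 fold change of this list was 0.09 in lung, -0.02 in liver, 0.04 in adrenal, 0.13 in hypothalamus, 0.17 in adipose and 0.23 in muscle.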

How the data were processed

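Messenger RNA was measured in 68 libraries, 5 or 6 per tissue and exposure. Per the labels' protocols, RNA came from Qiagen kits (lung, liver, muscle, adipose) or a Zymo kit (hypothalamus, adrenal), and libraries were run on a NextSeq 500. Partek, DESeq2 and the build rn6 are named in the submitters' processing notes without roles, and the aligner is not given in the sources used here. The authors deposited 1 table per tissue of a signal, namely gene counts over a library's size factor: 100% of the values were whole reads within 0.01 after division by 1 step per library. Of 19465 rows, 24 with a date for a name were left out.

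Each tissue was fitted with limma 3.58.1 in R 4.3.3 (log2(value + 1), trend, robust, minimum mean 10), tested on simulated data, with Benjamini-Hochberg adjustment over all genes. Alternatives were pseudocounts of 0.5 and 10, no minimum or 50, TMM scaling, array weights, no robust moderation, each library left out, and edgeR 4.0.16 and DESeq2 1.42.0 on recovered reads. EdgeR called 2680 genes in lung, 1423 in liver, 2636 in adrenal, 203 in hypothalamus, 1033 in adipose and 5651 in muscle. Within a group, no 2 libraries agreed within sampling noise (chi-square per degree of freedom of at least 8.76).

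Genes named are Nfe2l2, Keap1, Nqo1 and Hmox1 in each tissue, every called member (up to 5 risen and 5 fallen per tissue with values by library), the 8 lowest F-test p-values, and 3 risen and 3 fallen companion genes per tissue. A companion gene that the rule names is not reported here. Other genes were named after their values were seen. The members and lists were chosen with earlier results of these data known.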

Additional observations from a re-analysis of the deposited data

Results flagged for a closer look

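In all, 9 single values lay far from the rest of their group among 140 groups of 5 or 6 libraries checked, where chance flags about 1 in 20. In muscle, Prdx5 was 212 in air 7 (nearest other 468), Gsr 206 in air 4 (nearest 156) and Mgst1 146 in ozone 13 (nearest 83.9). In adrenal air 8, the library least like its group, Slc7a11 was 130.4 (nearest 32.6) and Gclc 4571 (nearest 3075). Slc7a11 was 117 in lung air 2 (nearest 39.2) and 3886 in hypothalamus ozone 13 (nearest 2307). In hypothalamus, Fth1 was 16048 in ozone 17 (nearest 9674) and Prdx5 713 in air 6 (nearest 477).

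The ozone effect differed between tissues by the limma F test for 8 members with the lowest p: Osgin1 (adjusted p = 1.20e-14), Nfe2l2 (2.16e-09), Ugdh (6.73e-07), Txnrd1 (2.45e-06), Prdx4 (1.41e-05), Gclc (5.29e-05), Gsta1 (0.00010033) and Blvrb (0.000101).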

How the results depend on the processing

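No value of a named gene that passed changed direction under any alternative run. The number of members called changed by over 1.5 times under these settings: DESeq2 gave 11 in lung (9 risen and 2 fallen), 6 in adrenal and 3 in adipose, array weights gave 7 in liver (1 risen and 6 fallen), 8 in adrenal, 1 in hypothalamus (Gstm1) and 2 in adipose, and a minimum mean of 50 gave 2 in adipose. Over all genes DESeq2 called 3302 in lung, 3387 in adrenal and 1616 in adipose, where limma called 2623, 2609 and 1043. Counts over all genes with array weights and with a minimum mean of 50 are not given here. The cause of the changed member counts was not tested. With each library left out, muscle had between 14 and 16 calls, lung between 6 and 9, adrenal between 3 and 6 and adipose 1 or 2, while liver always had 4 and hypothalamus 0. The adrenal count was 5 without air 8 and 6 without air 9, and the adipose count was 2 without ozone 22. Chosen after seeing the data, leaving out lung air 2 and air 8 gave 7 and leaving out adipose air 2 and ozone 22 gave 1. The 7 in lung were not the same members. Fth1 and Prdx6 were lost, while Slc7a11 (log2 fold change 1.73, limma adjusted p = 0.00579) and Sod2 (0.46, adjusted p = 0.0465) were gained.

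No paired analysis was possible within a tissue because air and ozone libraries share no number. Across tissues, 34 of 90 pairs of libraries with the same number correlated above 0.1 in their deviations, with a median of 0.0103. Of 872 other pairs, 314 did so, with a median of 0.0025. Deviations in different organs of a rat need not correlate, so these values cannot decide whether a shared number means a shared animal. The labels leave it open. With the library number as a replicate block, the F test passed for 15 members in place of 19. With each tissue's own spread it passed for 20, with a pseudocount of 10 for 19 and with a minimum mean of 50 for 17.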

Other observations

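Resting levels of the members differed between tissues, in CPM computed from the recovered reads of the air libraries. This is a description across tables that were normalised separately, with no test. Catalase was at 2999 in liver and between 67.0 and 416 in the other tissues. Gpx2 was at 102 in lung and at most 1.1 elsewhere, and Slc7a11 was at 332 in hypothalamus and at most 4.2 elsewhere. Osgin1 stood at 199 in liver, the tissue where it fell most, and at 43.6 or less in the other tissues. In adrenal, Gsta1 (1593), Me1 (1469), Sod2 (1410.2) and Prdx3 (1363) were each higher than in the other 5 tissues. In adipose, Gpx3 (1825) and Sod3 (1021) were each at their highest, and in lung Prdx6 (594).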
